A study of Mus musculus with 3 samples.

Results

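The genes described here encode the ligands and receptors of axon guidance: netrins, Slits, ephrins and semaphorins on the ligand side, and Dcc, neogenin, Unc5, Robo, Eph, neuropilin and plexin proteins on the receptor side. They were chosen by the gene names printed on the arrays, without use of any measured value, which gave 67 of 29273 names on the arrays (33 ligands and 34 receptors), measured by 112 of 41174 probes. Plxnd1, the plexin that binds Sema3e, had no probe under that name. Unc5cl was taken in by its name alone and is a death domain protein, not a netrin receptor. EpH4 is an epithelial line derived from the mouse mammary gland, and EpH4-PR cells are EpH4 cells stably transfected with the progesterone receptor (PR), selected as clones and kept in G418. They were grown in DMEM with 10% FBS to about 75% confluence, and no hormone treatment is named for these cultures. RNA of 3 samples was labelled with Cy5 and hybridised to 3 Agilent whole mouse genome arrays against a commercial mouse reference RNA (Stratagene mouse standard) in Cy3, always in the same dye orientation. Vector control cells (EpH4-EV) were not analysed here. Every ratio below is therefore a level in EpH4-PR RNA relative to the reference RNA, not an effect of PR.

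Axon guidance molecules steer growing nerve fibres by attraction or repulsion, and many of them act outside the nervous system. In the mammary gland, netrin-1 with neogenin and Slit2 with Robo1 hold the layers of the ducts together, ephrins and Eph receptors act at contacts between cells, and semaphorins signal through neuropilins and plexins to the cytoskeleton. The names of the families follow the nervous system, in which they were first studied, so their presence in an epithelial line carries no statement about neurons.

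The EpH4-PR samples carried the markers of a simple epithelium. The 10 listed epithelial gene names, of which Epcam and Tacstd1 are the same gene, matched 9 genes on the array. All 9 were well above background in Cy5, the channel of EpH4-PR RNA, and their summed Cy5 intensity was 98530 to 114900 against 11780 to 12680 in Cy3. E-cadherin (Cdh1) had a log2 ratio of 4.29 and keratin 7 of 3.99, while keratin 19 was lower than in reference RNA, at -2.62. Of 18 mesenchymal probes 10 were lower (55.6%, against 3.83% of all probes) and 0 higher (against 2.26%) by limma, with vimentin at -6.51. At an unadjusted p under 0.05, 15 were below and 0 above. All 10 mesenchymal genes had a probe well above background in Cy5, with vimentin at 917.5 to 1083. The low ratios are therefore levels relative to the reference and do not show that these markers were absent. Of 20 probes for neurons and glia 0 were called (6 above and 6 below at an unadjusted p under 0.05). At the adjusted p by limma 25% were above and 30% below, against 25.7% and 24.6% of all probes. In Cy5, 8 of 10 such genes were well above background, with a summed intensity before normalization of 2487 to 2922 in Cy5 and 2171 to 2762 in Cy3. Endothelial probes were lower in 1 of 10 cases (10%) and blood probes in 3 of 10 (30%), against 3.83% of all probes. None of either was called higher. Of all probes 2.26% were, so 0 calls among so few probes is not a result about a list, nor is it for neurons and glia. In Cy5, 3 of 6 endothelial and 5 of 6 blood genes were well above background. In a bulk RNA, fewer cells of a type and less RNA per cell cannot be told apart. Pgr, the gene of the transfected receptor, had 2 probes, each well above background in Cy5 on 1 array only, with log2 ratios of -0.11 and -0.19. Whether these probes can detect the transfected construct is not given in the sources used here.

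The promoters of 5 genes that were called are printed first, since the study followed a PR binding element in another promoter. They are the 250 bases before the RefSeq start of the genes with 1 start listed, on build GRCm38.p6, read 5′ to 3′ on the strand of the gene. The positions are chr6:42373269-42373518 (minus strand) for Epha1, chr9:109095186-109095435 (plus) for Plxnb1, chr5:13396534-13396783 (plus) for Sema3a, chr5:47982905-47983154 (plus) for Slit2 and chr11:35121206-35121455 (plus) for Slit3. Capitals mark the GC box GGGCGG, a binding motif of Sp1, on either strand. The hexamer AGAACA is the core of a PR binding site, and both it and the GC box were searched on both strands.
Epha1: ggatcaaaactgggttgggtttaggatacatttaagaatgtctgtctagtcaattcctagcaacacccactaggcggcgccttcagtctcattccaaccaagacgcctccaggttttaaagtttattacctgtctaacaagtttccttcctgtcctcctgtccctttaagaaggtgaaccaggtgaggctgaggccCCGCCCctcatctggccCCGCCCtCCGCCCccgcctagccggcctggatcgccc
Plxnb1: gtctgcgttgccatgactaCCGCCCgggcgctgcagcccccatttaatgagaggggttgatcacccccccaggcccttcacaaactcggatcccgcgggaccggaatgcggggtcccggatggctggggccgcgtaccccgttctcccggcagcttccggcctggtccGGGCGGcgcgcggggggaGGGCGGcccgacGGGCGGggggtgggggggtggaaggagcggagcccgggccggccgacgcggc
Sema3a: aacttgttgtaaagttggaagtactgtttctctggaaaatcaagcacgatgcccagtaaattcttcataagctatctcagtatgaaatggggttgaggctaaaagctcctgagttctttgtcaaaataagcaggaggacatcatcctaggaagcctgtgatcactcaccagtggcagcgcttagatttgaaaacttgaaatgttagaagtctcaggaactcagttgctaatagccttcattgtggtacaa
Slit2: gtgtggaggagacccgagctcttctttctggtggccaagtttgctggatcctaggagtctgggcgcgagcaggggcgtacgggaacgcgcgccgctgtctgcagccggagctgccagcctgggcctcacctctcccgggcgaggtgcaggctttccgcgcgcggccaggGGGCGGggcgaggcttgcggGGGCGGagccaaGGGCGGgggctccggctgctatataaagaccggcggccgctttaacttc
Slit3: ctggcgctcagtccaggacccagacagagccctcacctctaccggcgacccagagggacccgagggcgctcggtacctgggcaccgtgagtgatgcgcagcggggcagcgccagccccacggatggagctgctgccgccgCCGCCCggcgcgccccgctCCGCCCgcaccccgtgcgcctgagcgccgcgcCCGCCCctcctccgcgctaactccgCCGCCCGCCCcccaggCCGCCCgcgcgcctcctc
These windows held 3, 4, 0, 3 and 6 GC boxes in the order printed, overlapping matches included, and 0 hexamers. A GC box was found in 52 of 73 promoters of 57 member genes (71.2%), against 42.6% of 21263 promoters of protein-coding genes, and the hexamer in 6 (8.22%) against 13.7%. These are matches of letters and not binding sites. The element that the study followed in the Akp2 promoter lies further from the start than these windows reach. The 0 hexamers found here therefore cannot be set beside it, and more distant sequence was not searched. Ntn1 and Sema3b had no entry in the promoter table.

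Most of these ligands and receptors gave signal in EpH4-PR cells. On all 3 arrays, Cy5 was well above background by the scanner's flag for 73 of the 112 probes (65.2%), compared with 68.9% of all probes. This covered 53 of the 67 genes, where 20449 of all 29273 gene names had such a probe. A gene was counted if any of its probes passed, so genes with several probes pass more easily. By comparison with the 95th percentile of the negative control spots, 74 probes passed (66.1%, against 66.8% of all probes). In the reference channel (Cy3) 81 probes were well above background on all 3 arrays, where 69.3% of all probes were, and 32 passed the limit of the negative controls, where 33.2% of all probes did. There were 28 member probes that were not well above background in Cy5 on any array, where 20.9% of all probes were not. There were 14 genes with no probe well above background on all 3 arrays in Cy5, 4 of them ligands and 10 receptors. The ligands were the ephrin Efna2, the laminin-like netrin Ntn4, and the semaphorins Sema3d and Sema4f. The receptors were Dcc, the Eph receptors Epha3, Epha5 and Ephb1, the plexins Plxna3, Plxna4 and Plxnc1, Robo2, and Unc5cl and Unc5d. For 8 of the 14, no array had signal well above background.

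Against the reference RNA, 3 member probes were higher (2.68%, with 2.26% of all probes called higher) and 5 were lower (4.46%, with 3.83% of all probes called lower), at an adjusted p under 0.05 by limma and a log2 ratio of at least 1. The shares in the list were near those of all probes. At the same adjusted p and any size, the called probes included, 26 probes were above the reference (23.2%, against 25.7% of all probes). On the other side 29 were below (25.9%, against 24.6%). The median log2 ratio over the 112 probes was -0.01, as over all probes, and single probes ran from -2.09 to 2.14. The 3 higher probes were those of the receptors Epha1 and Plxnb1 and the ligand Ntn1, and the 5 lower probes were all of ligands, the semaphorins Sema4c, Sema3a and Sema3b and the Slits Slit2 and Slit3. Ligands numbered 1 higher and 5 lower of 56 probes and receptors 2 higher and 0 lower of 56, with 15 receptor probes below the reference at an unadjusted p under 0.05. The share of all probes at an unadjusted p was not counted. Even at the adjusted p it was 25.7% above and 24.6% below, so unadjusted counts in this text are not results about a family. The difference between ligands and receptors was not tested, and 9 ligand and 7 receptor probes were lower by the log ratio that the scanner software gives.

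**Figure D1:**
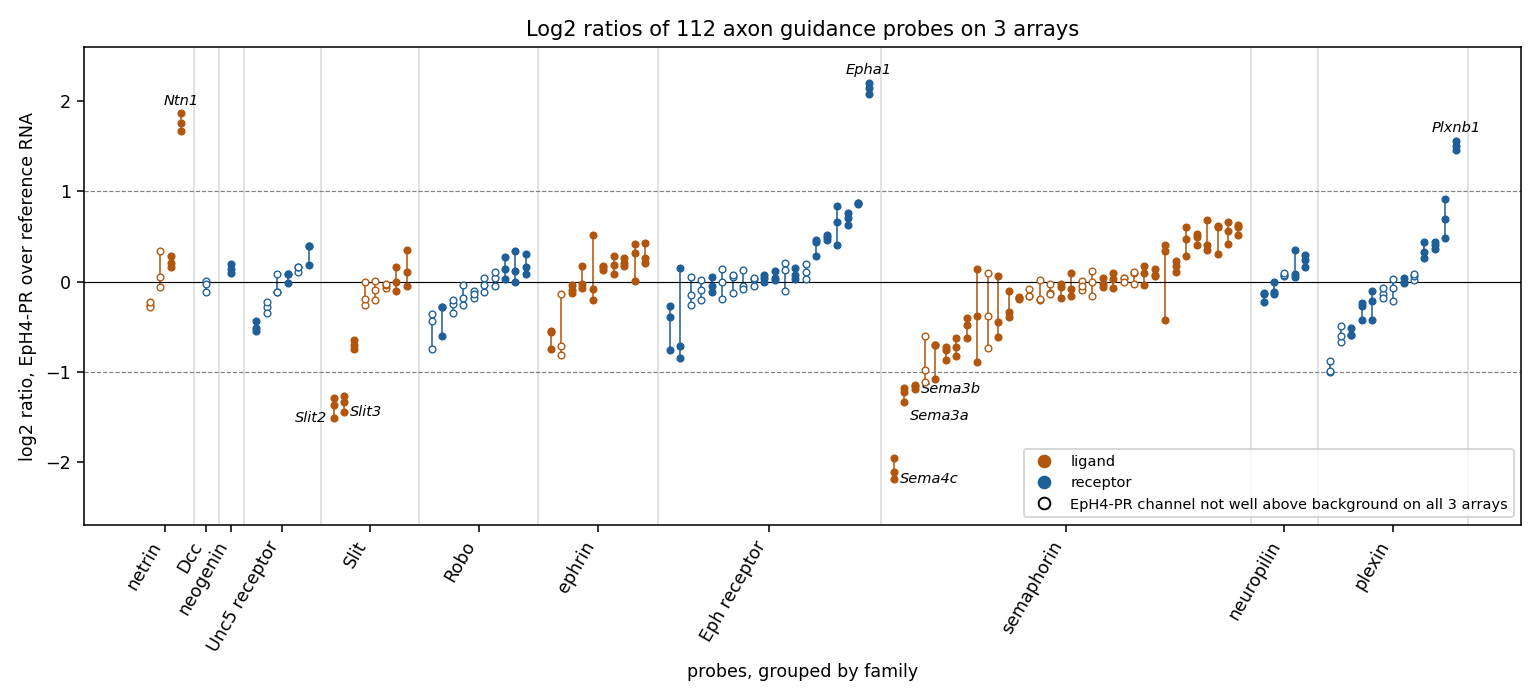
Log2 ratio, EpH4-PR RNA against reference RNA (vertical axis), for the 112 probes, grouped by family along the horizontal axis and ordered within each. Each probe has 3 points, 1 per array, joined by a line, orange for ligands and blue for receptors, open where Cy5 was not well above background on all 3 arrays; dashed lines mark log2 ratios of -1 and 1. The 8 named probes lie beyond the dashed lines on every array, and most other probes lie near 0.

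Of the netrin system, Ntn1 was the gene that stood higher than the reference. Ntn1 encodes netrin-1, a secreted ligand of Dcc, neogenin and Unc5 receptors. Its probe A_52_P401473 had log2 ratios of 1.87, 1.67 and 1.76 on replicates 1, 2 and 3 (mean 1.77 ± 0.10 SD, n = 3; adjusted p = 3.3e-05 by limma). All 3 arrays lay close together and far from 0. Its Cy3 intensities of 121, 121 and 91.2 passed the negative control limit on 0 of the 3 arrays, so no fold is given. The mean log2 ratio was 3.16 with offset 0 in the background correction, 3.61 by the scanner software and 2.40 after median centring. The other Ntn1 probe, A_51_P147123, gave 0.06, -0.06 and 0.34, with an adjusted p of 0.328. It was dim, well above background in Cy5 on 2 of the 3 arrays. The finding for Ntn1 thus rests on 1 of its probes. Of the other netrins, Ntn3 was at 0.22 (adjusted p = 0.0149 by limma), and Ntn4, at -0.26, was not well above background in Cy5 on any array and passed the negative control limit in Cy3 on none.

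Of the netrin receptors and Unc5cl, none passed the size limit. Dcc, which mediates attraction to netrin-1, had log2 ratios of 0.00, -0.03 and -0.11 and was not well above background in Cy5 on any array. Neo1, or neogenin, gave signal well above background on all 3 arrays, at 0.13, 0.19 and 0.09 (mean 0.14 ± 0.05 SD, n = 3; adjusted p = 0.0516 by limma). After median centring of the arrays in place of loess, Neo1 was 1.22 and called. Unc5b, a receptor for repulsion by netrin-1, was below the reference at -0.44, -0.51 and -0.55 (mean -0.50, adjusted p = 0.000703 by limma), and median centring turned it to 0.64, so its direction depended on the normalization. Unc5a was above the reference at 0.32. The 2 probes of Unc5d passed the adjusted p on opposite sides of 0, at -0.29 and 0.14, and neither was well above background in Cy5 on any array.

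Of the Slit ligands, secreted proteins that repel through Robo receptors, Slit3 was lower in EpH4-PR RNA by its 1 probe. Slit2 was called lower by 1 of its 6 probes, which disagreed. The probe of Slit3 had log2 ratios of -1.34, -1.45 and -1.27 (mean -1.35 ± 0.09 SD, n = 3; 2.55-fold lower, adjusted p = 5.18e-05 by limma), and its mean was -2.36 with offset 0 and -2.71 by the scanner software. Its EpH4-PR signal was small, at 97.6, 102 and 78.5 intensity units where the 95th percentile of negative controls was 85.9, 87.4 and 62.9. Slit2 had 6 probes. The lowest, A_51_P496569, read -1.29, -1.37 and -1.51 (mean -1.39 ± 0.11 SD, n = 3; 2.62-fold lower, adjusted p = 6.32e-05 by limma), and the other probe for the same transcript, A_51_P496562, read -0.65, -0.70 and -0.75. The remaining 4, listed under other cDNA entries, lay between -0.15 and 0.13 with adjusted p above the limit, and 3 of them were not well above background in Cy5 on any array. The last, A_52_P142870, was well above background on all 3, with Cy5 intensities of 226.9, 211.5 and 208. It read 0.13 (adjusted p = 0.247 by limma), so the result for Slit2 depended on the probe. Median centring left Slit3 called at -1.10 but brought the lowest Slit2 probe to -0.48. Slit1 was at 0.02.

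Of the Slit receptors, 0 of 10 probes were called by limma (5 below and 1 above at an unadjusted p under 0.05). At the adjusted p 4 were below the reference (40%, against 24.6% of all probes) and 0 above (against 25.7%). Robo1, the receptor best known in the mammary duct, read -0.29, -0.28 and -0.61 (mean -0.39 ± 0.19 SD, n = 3; adjusted p = 0.0131 by limma), with EpH4-PR intensities of 100, 104 and 83.7, just over the negative controls. The 3 arrays agreed in sign but replicate 3 lay apart. None of the 6 Robo2 probes was well above background on all 3 arrays, and their ratios ran from -0.52 to 0.03. Robo3 at 0.15 and 0.18 and the endothelial receptor Robo4 at 0.15 missed the adjusted p. Thus both Slit2 and Robo1 gave signal in EpH4-PR cells, and Robo2 did not on every array.

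Epha1 had the highest ratio of the 112 probes with offset 50, after loess and after median centring, while Ntn1 was higher with offset 0 and by the scanner software. The Eph receptors are tyrosine kinases that bind membrane-bound ephrins on neighbouring cells, EphA receptors mainly ephrin-A and EphB receptors mainly ephrin-B. Epha1 read 2.21, 2.08 and 2.15 (mean 2.14 ± 0.07 SD, n = 3; 4.42-fold higher, adjusted p = 1.88e-05 by limma). Its intensities before normalization were 1382, 1292 and 1482 in Cy5 and 177, 181 and 165 in Cy3. Its mean log2 ratio was 2.59 with offset 0, 2.84 by the scanner software and 3.20 after median centring. Only 1 probe on the array carried its name. Epha2, a receptor common in epithelia, was the next EphA gene at 0.87, 0.87 and 0.86 (mean 0.86 ± 0.01 SD, n = 3; adjusted p = 8.74e-05 by limma), below the size limit on every array. It was 2.12 after median centring. Epha7 was above the reference at 0.39 by 1 of its 2 probes, while both Epha4 probes lay at -0.04 and 0.04, with 95% intervals of -0.17 to 0.09 and -0.08 to 0.15. Of 8 EphA genes 6 had a probe well above background on all 3 arrays.

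EphB receptors were above or below the reference by less than 1 log2 unit. Ephb4, the receptor of ephrin-B2, read 0.71, 0.63 and 0.76 by the probe A_52_P542612 (mean 0.70 ± 0.07 SD, n = 3; adjusted p = 0.00027 by limma). Its second probe, A_52_P45596, gave 0.84, 0.66 and 0.40 (mean 0.63), so that both probes lay above the reference on all 3 arrays. Ephb3 was at 0.49, 0.46 and 0.52 (mean 0.49, adjusted p = 0.000595 by limma). Ephb2 was below the reference at -0.47 by 1 probe and not well above background in Cy5 by the other. Ephb6, an Eph protein without kinase activity, was the member with the widest spread, at -0.85, -0.72 and 0.15 (SD 0.55), and missed the adjusted p at 0.113.

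The ephrins gave signal for 7 of 8 genes, and 0 of their 10 probes were called by limma (5 above and 2 below the reference at an unadjusted p under 0.05). At the adjusted p 4 were above (40%, against 25.7% of all probes) and 2 below (20%, against 24.6%). Efna1, the usual partner of Epha2, was at 0.28, 0.18 and 0.09 (mean 0.18, adjusted p = 0.041 by limma). Efna5 read 0.21 and 0.25 by its 2 probes. Efnb2, the ligand of Ephb4, was at 0.15 by the probe A_52_P340073, with values of 0.17, 0.13 and 0.16, and at 0.02 by the other. Efnb1 was below the reference at -0.75, -0.55 and -0.56 (mean -0.62 ± 0.11 SD, n = 3; adjusted p = 0.000801 by limma), but at 0.06 after median centring. Both sides of the pairs Efnb2 with Ephb4 and Efna1 with Epha2 were thus well above background in these cells.

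**Figure D2:**
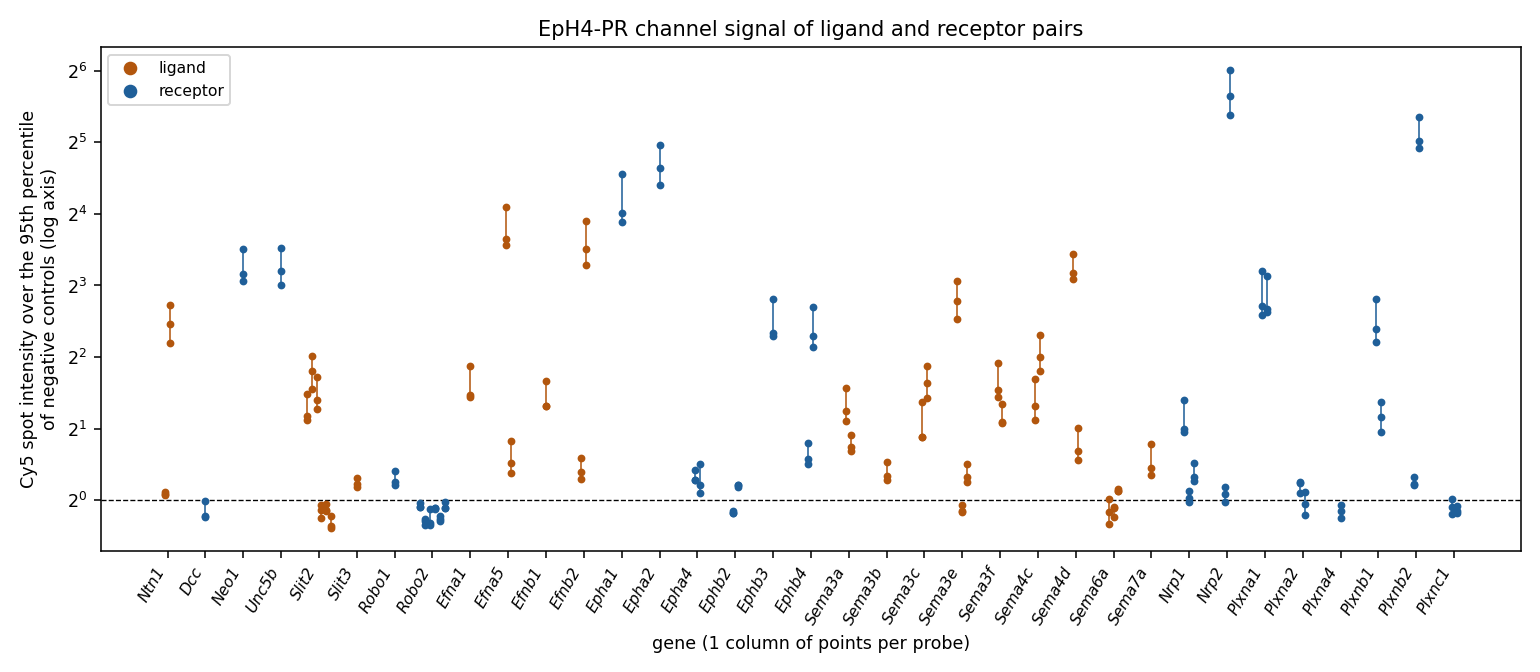
Cy5 spot intensity of the EpH4-PR channel divided by the 95th percentile of negative control spots on the same array (vertical axis, log scale) for the probes of 35 ligand and receptor genes on the array. Each probe has a column of 3 points, 1 per array, orange for ligands and blue for receptors; the dashed line marks the negative control limit. Dcc, Robo2, Plxna4 and Plxnc1 lie under the line but for 1 point of Plxnc1 just above it, and since probes differ in brightness the heights of different genes are not to be compared.

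The semaphorins had 34 probes, of which limma called 0 higher and 3 lower, with 7 above and 11 below the reference at an unadjusted p under 0.05. At the adjusted p 7 were above (20.6%, against 25.7% of all probes) and 10 below (29.4%, against 24.6%). Class 3 semaphorins are secreted and act through neuropilins and A-type plexins. Sema3a, the prototype of repulsion, read -1.23, -1.34 and -1.18 by A_52_P527748 (mean -1.25 ± 0.08 SD, n = 3; 2.38-fold lower, adjusted p = 5.97e-05 by limma). The other Sema3a probe read -0.63, -0.72 and -0.83, on the same side and under the size limit. Sema3b, known as a candidate tumour suppressor, read -1.15, -1.19 and -1.16 (mean -1.17 ± 0.03 SD, n = 3; 2.24-fold lower, adjusted p = 4.45e-05 by limma). The EpH4-PR signal of Sema3b was small, at 104.5, 110.4 and 91.4 where the 95th percentile of negative controls was 85.9, 87.4 and 62.9. Median centring brought Sema3a to -0.73 and Sema3b to -0.89, under the size limit but on the same side, while the scanner software gave -1.91 and -2.14 and offset 0 gave -1.87 and -1.99.

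Of the other class 3 semaphorins, Sema3f, Sema3e and Sema3c had probes above the reference. Sema3d read -0.74, -0.39 and 0.09 (mean -0.35) and missed the adjusted p at 0.13 by limma. Sema3f, a ligand of Nrp2, read 0.47, 0.60 and 0.28 by 1 probe and 0.35, 0.40 and 0.69 by the other, with means of 0.45 and 0.48 (adjusted p = 0.00545 and 0.00554 by limma). Sema3e was at 0.48 and 0.55 by 2 probes, and the last, not well above background on any array, was at -0.04. Sema3c was at 0.58 by A_52_P65351, with 0.61, 0.63 and 0.51, but at 0.08 by its other probe. In class 3 as a whole, 5 of 11 probes were above the reference at the adjusted p (45.5%, against 25.7% of all probes). On the other side 3 were below (27.3%, against 24.6%).

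Among class 4 semaphorins, membrane proteins that bind B-type plexins, Sema4c had the lowest ratio of the members with loess and offset 50. Its probe A_52_P659904 read -2.19, -1.96 and -2.11 (mean -2.09 ± 0.12 SD, n = 3; 4.25-fold lower, adjusted p = 2.75e-05 by limma). After median centring it was at -1.04 and Slit3 lay lower, and by the scanner software it was at -2.42 and Plxna2, Slit3, Plxnc1 and Sema4f lay lower. The second probe, A_51_P170651, carries the same GenBank entry and read -0.42, 0.34 and 0.41 (mean 0.11 ± 0.46 SD, n = 3; adjusted p = 0.63 by limma). Both were well above background on all 3 arrays, so the level of Sema4c relative to the reference cannot be given from these arrays. Sema4d, a ligand of Plxnb1, was at 0.51 by 1 probe (0.60, 0.61 and 0.31) and at 0.09 by the other. Sema4a was below the reference at -0.51 and Sema4f at -0.90, the latter well above background in Cy5 on 1 array.

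Of the remaining classes, Sema7a, which is anchored to the membrane by a lipid, read -0.71, -0.70 and -1.08 (mean -0.83 ± 0.22 SD, n = 3; adjusted p = 0.00135 by limma). Sema5a was at -0.78 by 1 probe. Its other probe, at -0.14, was not well above background in Cy5 on any array and missed the adjusted p at 0.0516. Class 6 semaphorins had 0 of 9 probes called by limma (2 below the reference at an unadjusted p under 0.05). At the adjusted p 22.2% were below, against 24.6% of all probes. Sema6a lay at 0.02, 0.06 and -0.05 by its 3 probes, 1 of which was well above background on all 3 arrays.

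Plxnb1 was the plexin that stood higher than the reference. Plexins are the signalling receptors of semaphorins, and Plxnb1 binds Sema4d. The probe A_51_P281734 read 1.46, 1.57 and 1.5 (mean 1.51 ± 0.05 SD, n = 3; 2.84-fold higher, adjusted p = 3.03e-05 by limma). Its Cy3 intensity passed the negative control limit on 1 array, and its mean log2 ratio was 2.44 with offset 0, 2.6 by the scanner software and 2.19 after median centring. The other probe read 0.92, 0.70 and 0.48 (mean 0.70 ± 0.22 SD, n = 3; adjusted p = 0.00242 by limma), above 0 on every array and under the size limit. For Plxnb2, a broadly expressed plexin, the 2 probes passed the adjusted p on opposite sides of 0. A_52_P678942 read 0.26, 0.44 and 0.33 with Cy5 intensities of 2562 to 2768, and A_52_P311068 read -0.10, -0.22 and -0.43 with 79.0 to 102. The probe on the lower side was thus close to the negative controls.

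Other plexins and the neuropilins differed less from the reference. Plxna1 was at 0.40 by 1 probe and 0.01 by the other. Plxna2 was below the reference by both of its probes, at -0.96 and -0.57. The first of these probes read -0.88, -1.01 and -1.0 on the 3 arrays and was well above background in Cy5 on 2 of them. Plxnc1, the receptor of Sema7a, was not well above background on all 3 arrays by either probe, and A_52_P507498 read -0.67, -0.49 and -0.60 (mean -0.59, adjusted p = 0.000665 by limma) with Cy3 over the negative control limit on 1 array. Nrp2, the co-receptor of Sema3f, had Cy5 intensities of 4284, 3646 and 4038 by A_52_P93910 and log2 ratios of 0.29, 0.16 and 0.23 (mean 0.23 ± 0.06 SD, n = 3; adjusted p = 0.0131 by limma). Nrp1, the co-receptor of Sema3a, had 3 probes well above background at -0.17, -0.09 and 0.16, the first past the adjusted p at 0.0327 and at 0.26 after median centring.

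In the 36 ligand and receptor genes set out as pairs, 35 were on the array. Of these 31 had a probe well above background on all 3 arrays, as did 20449 of all 29273 gene names. Those without were Dcc, Robo2, Plxna4 and Plxnc1. Each was a receptor, and for Dcc, Robo2 and Plxna4 another receptor of the same ligand gave signal in EpH4-PR cells: neogenin and Unc5b for netrin-1, Robo1 for the Slits and Plxna2 for Sema6a. The signal of Plxna2 rested on 1 of its 2 probes and was small. Its Cy5 intensities were 92.3, 103.5 and 75.1 where the 95th percentile of negative controls was 85.9, 87.4 and 62.9.

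Several results depended on the probe. Of the 67 genes 32 had more than 1 probe, and in 3 of these, Sema4c, Ntn1 and Slit2, the means of the probes differed by at least 1 log2 unit. The ranges were 2.20, 1.66 and 1.53. In Plxnb2 and Unc5d, probes passed the adjusted p on both sides of 0. When the probes of a gene were averaged, Epha1 at 2.14 and Plxnb1 at 1.1 stayed higher, Slit3 at -1.35 and Sema3b at -1.17 stayed lower, and Ntn1 at 0.94, Sema3a and Sema4c, both at -0.99, and Slit2 at -0.38 lay under the size limit.

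**Figure D3:**
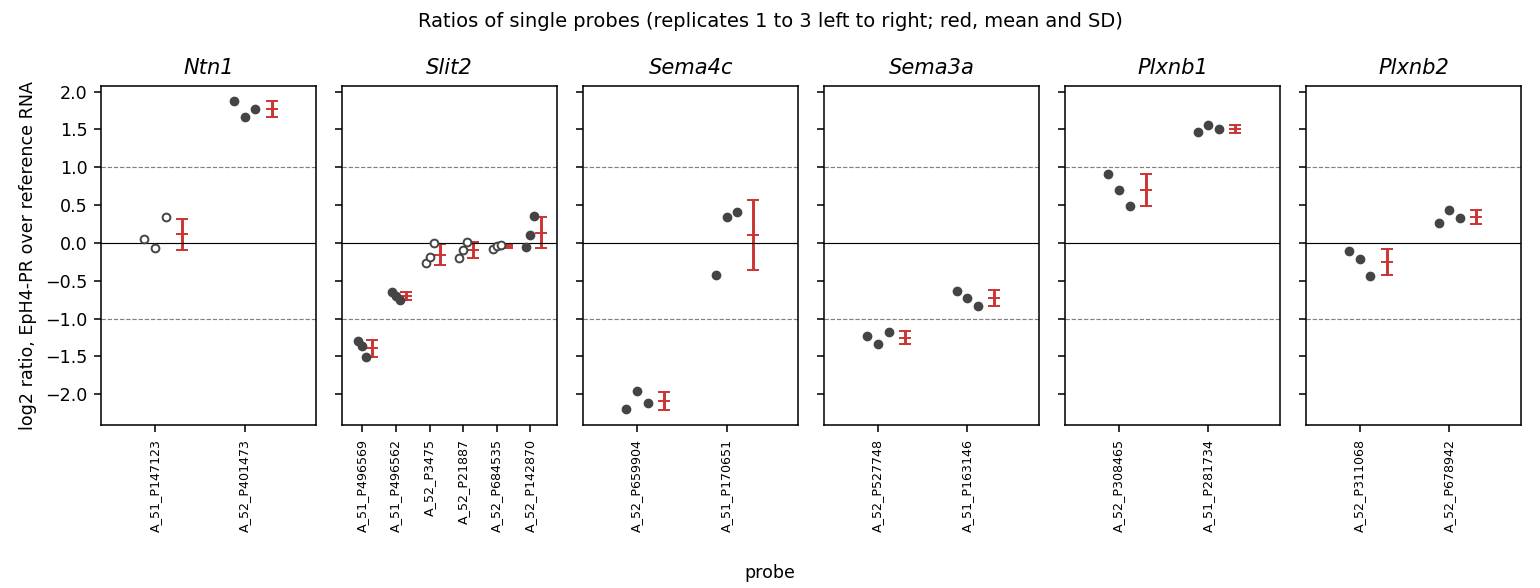
Log2 ratios of the single probes of Ntn1, Slit2, Sema4c, Sema3a, Plxnb1 and Plxnb2 (vertical axis, EpH4-PR over reference RNA), with probes along the horizontal axis. Points are replicates 1 to 3 from left to right, open where Cy5 was not well above background on all 3 arrays, red bars are the mean and SD (n = 3), and dashed lines mark -1 and 1. The probes of Sema4c differ by 2.20 log2 units, while those of Plxnb1 and Sema3a stay on 1 side of 0.

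Agreement between the arrays was close for the 8 called probes, whose SD ran from 0.03 to 0.12. Pearson's r over the 112 probes, which are not independent replicates and share the arrays, was 0.956 for replicates 1 and 2, 0.901 for 1 and 3 and 0.919 for 2 and 3. The median SD was 0.09 for members and for all probes. There were 7 member probes with an SD of at least 0.3, of Ephb6, Sema6c, Sema4c, Sema3d, Efna4, Efna2 and Sema5b, and replicate 3 was the highest array in 6 of them and replicate 1 the lowest in 6. Replicate 3 also had the lowest negative controls, at 62.9 in Cy5 and 107 in Cy3, against 85.9 and 87.4 in Cy5 and 162 and 168 in Cy3 on replicates 1 and 2. The part of that in these values was not tested.

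How far a member stood from the reference depended on its brightness and on the normalization. In the 15 members with a mean log2 intensity of at least 8, median centring in place of loess raised the log2 ratio by 0.92 to 1.39, and in the 60 members under 6.5 it changed it by -0.25 to -0.05. Median centring thus gave 16 higher probes (14.3%, against 17.1% of all probes) and 3 lower probes (2.68%, against 1.72%). Among those higher were Epha2, Ephb3, Ephb4, Efna5, Efnb2, Neo1, Nrp2, Plxna1, Plxnb2, Sema3e, Sema4d and Sema5b. The sign changed for 22 of the 112 probes. Epha1, Ntn1, Plxnb1, Sema4c and Slit3 were called in the same direction by every processing of single probes that was tried.

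**Figure D4:**
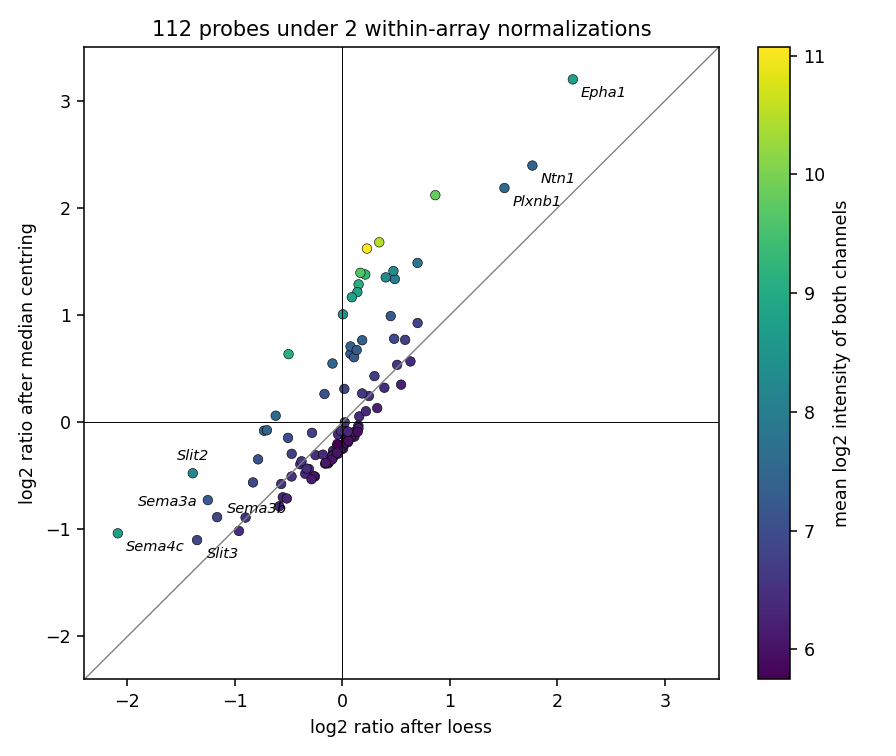
Log2 ratio of the 112 probes after loess (horizontal axis) and after median centring (vertical axis), coloured by the mean log2 intensity of both channels; the grey line marks equal values. Bright probes lie above the line by about 1 log2 unit and dim probes slightly below it, and Sema3a, Sema3b and Slit2 fall short of -1 on the vertical axis.

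Offset 0 in the background correction, in place of 50, gave 9 higher and 15 lower member probes (8.04% and 13.4%, against 7.59% and 9.48% of all probes), and the log ratio of the scanner software gave 13 and 16 (11.6% and 14.3%, against 8.78% and 9.44%). All 8 probes called with loess and offset 50 were among them. Under both settings the added probes included Ephb4, Sema3c, Sema3e, Sema3f and Sema4d on the higher side and Plxna2, Plxnc1, Robo2, Sema4f, Sema5a, Sema7a and Unc5d on the lower side.

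**Figure D5:**
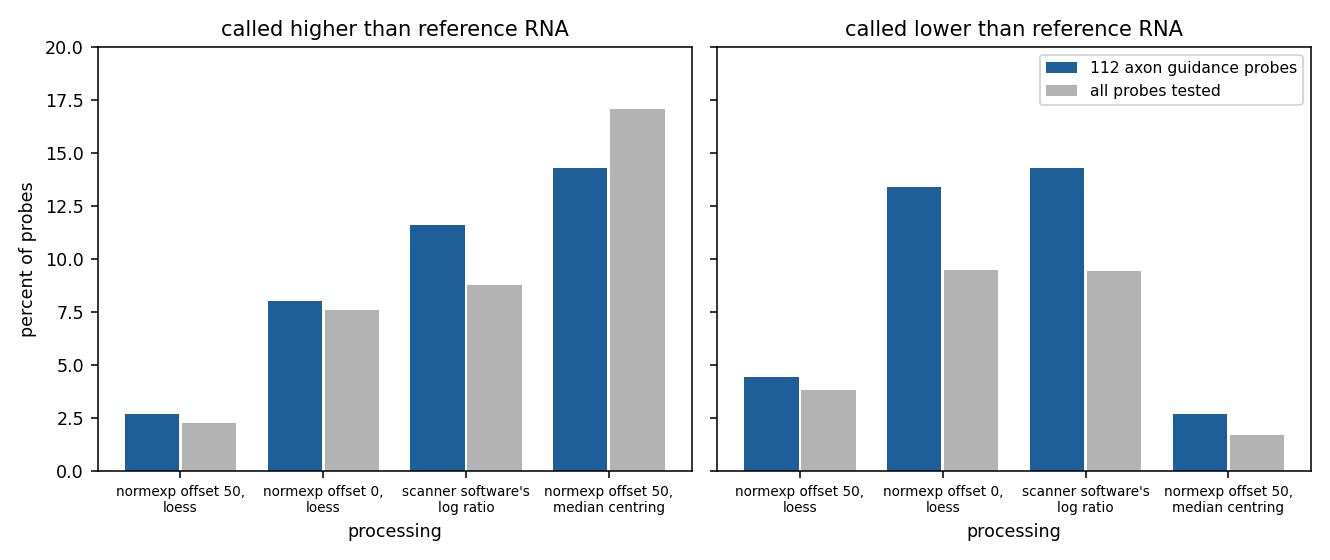
Percent of the 112 axon guidance probes (blue bars) and of all probes tested (grey bars) called higher (left) and lower (right) than reference RNA under 4 kinds of processing along the horizontal axis. With median centring 14.3% of the axon guidance probes and 17.1% of all probes were higher, against 2.68% and 2.26% with loess and offset 50.

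Other genes of the pathway, both intracellular proteins and further secreted or surface proteins, were read from a list of 65 gene names. These matched 64 genes on the array with 125 probes. In Cy5, 59 of the 64 genes had a probe well above background on all 3 arrays, as did 20449 of all 29273 gene names. Against the reference 6 probes were higher (4.8%, against 2.26% of all probes) and 8 lower (6.4%, against 3.83%), with a median log2 ratio of 0.05. Higher were 2 of the 6 probes of the actin-binding Ablim1 (1.33 and 1.02), the only probe of the protease Bace1 (1.70), and 1 of the 3 probes each of the kinases Pak2 (1.39) and Rock1 (1.19) and of Sipa1l1 (1.16). The other probes of Pak2 both lay at 0.43, those of Rock1 at 0.79 and at -0.26 (the latter from 2 arrays), and those of Sipa1l1 below the reference at -0.31 and -0.21 (adjusted p = 0.00595 and 0.0161 by limma). Lower were the chemokine Cxcl12 (-2.19 and -3.63) and its receptor Cxcr4 (-1.45, with its other probe at -0.04), the exchange factor Dock1 (-1.01 and -1.11, with its other probe at -0.27), Dpysl3 (-2.13), a collapsin response mediator protein, and the plexin effectors Mical1 (-3.01) and Mical2 (-1.38). At the adjusted p alone 44 probes were above the reference (35.2%, against 25.7% of all probes) and 35 below (28%, against 24.6%).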

How the data were processed

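For each of 3 two-colour arrays the authors deposited a scan file (Agilent Feature Extraction 8.1.1.1) that holds the mean and median intensity of each spot, its local background and a log10 ratio, Cy5 over Cy3, before any normalization between arrays. Which RNA stood on each side of a further table of fold changes deposited by the authors is not named in it, and it was not used here; it holds their comparison with its p-values. The study cites earlier work for its array analysis, and whether the arrays are separate cultures is not given in the sources used here, so that p-values measure the spread between these samples, which may be technical.

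With limma 3.58.1 in R 4.3.3, mean intensities were corrected by normexp (offset 50) and normalized within arrays by loess, control spots had weight 0 and were left out afterwards with outlier spots (150, 18 and 3 on replicates 1, 2 and 3, none of a member), and spots of a probe were averaged. Ratios were tested against 0 by lmFit and eBayes with Benjamini-Hochberg adjustment over 41174 probes, with calls under 0.05 after adjustment where the log2 ratio was at least 1 in size. "Well above background" is the scanner's own flag. Each array was on its own slide, and the number of arrays limits the precision. Cy3 was brighter than Cy5 on negative controls, by medians of 119, 121 and 91.8 against 72.6, 74.1 and 57.3. On simulated ratios with the observed SDs, with 200 of 41174 probes changed by 1.5 log2 units, 90.5% were recovered with 0 false calls. The unchanged ratios were centred on 0, so false calls past the size limit were unlikely from the start. Dye, background and normalization were not simulated, so only the test step was checked.

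Of 83 member probes with a RefSeq accession 81 matched the gene table of GRCm38.p6, all under the name in the file. Named with values were called probes well above background, both sides of listed ligand and receptor pairs, and genes with probes on opposite sides of 0; further members were chosen after their values were seen. Members and lists were chosen with earlier results of these data known. Alternatives covered background correction, normalization, filters, outlier spots, spot median, each array left out, an intensity trend and the methods' t-test, and, added after seeing the data, negative control spots as background and as the limit for signal. Figures were drawn with Python 3.11.15 and matplotlib 3.10.9.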

Additional observations from a re-analysis of the deposited data

How the results depend on the processing

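With normexp offset 0, 9 axon guidance probes were higher and 15 lower, and 3125 and 3905 of all probes; taking the software's log ratio, 13 and 16, and 3616 and 3887; with median centring, 16 and 3, and 7031 and 708. The share of higher calls among all called probes was 37.1% with loess and offset 50, 44.5% with offset 0, 48.2% with the software's ratio and 90.9% with median centring; among called axon guidance probes it was 37.5%, 37.5%, 44.8% and 84.2%. The other settings kept all 8 calls. Leaving out 1 array gave 3 higher in each case and 5 to 6 lower (all probes 933 to 953 and 1585 to 1605), with Plxna2 at -1.0 added without replicate 1 and Sema4f at -1.05 without replicate 3. Median centring kept 5 of the 8 and lost Sema3a, Sema3b and Slit2. The methods' t-test called the same 3 and 5, also after Benjamini-Hochberg adjustment, with 929 and 1577 of all probes (897 and 1547 after adjustment). The median log2 ratio of the axon guidance probes was 0.0315 with offset 0, -0.1449 with median centring, 0.0203 with the filter on dim probes, and -0.0180 to -0.0092 with 1 array left out. With probes of a gene averaged, 2 genes were lower. Signal in the EpH4-PR channel was found for 74 to 76 probes with 1 array left out. The cause of these shifts was not tested.

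Directions turned for small ratios. Median centring gave Efnb1 0.0611, Nrp1 0.2637, Unc5b 0.6360, Efnb2 (A_51_P380970) -0.0007 and Epha4 (A_52_P288177) -0.0819. The software's ratio gave Epha4 0.3400 (A_51_P221762) and -0.0322 (A_52_P288177) and Sema6a 0.0762 (A_52_P26201). The median spot intensity gave Efnb2 -0.0186, Epha4 -0.0007 and Plxna1 (A_51_P501922) -0.0096, and offset 0 gave Plxna1 -0.0179. With 1 array left out, Efnb2 (A_51_P380970) ran from -0.0533 to 0.0709, Epha4 (A_51_P221762) from -0.0835 to 0.0018, Plxna1 (A_51_P501922) from -0.0112 to 0.0188, Sema4c (A_51_P170651) from -0.0412 to 0.3754 and Sema6a (A_52_P26201) from -0.1224 to 0.0050.

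No paired analysis was possible because 1 group was analysed. A slide block was not run, since each slide held 1 array. Dim spots limit the ratios, since the negative controls read above the local background.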

Other observations

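A330090H18 was the 1 further probe whose RefSeq accession belongs to a guidance receptor, Epha10, under an older name outside the selection rule. Its log2 ratios were -0.32, -0.19 and -0.15 (mean -0.22, adjusted p = 0.0199 by limma), with a signal not well above background in Cy5 on any array.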
